A study of Homo sapiens with 6 samples.

Results

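The genes described here are the 35 members of the BCL2 family, the caspases with their activators and inhibitors, and the death receptors that carry these names on the array, out of 30484 gene names in all. They were picked by gene name for their known roles, at a time when earlier results of these data were known, and were split into 8 pro-survival and 27 pro-death genes. The array held 66 probes for them, of which 64 were kept after probes missing on more than 1 array had been removed, so that all 35 genes kept a probe. RNA was measured in RH36, a human embryonal rhabdomyosarcoma (ERMS) cell line negative for the PAX3/FOXO1 fusion, which is 1 line and therefore 1 genetic background. Cells of the pre-miR-27a group (3 arrays) received a precursor of miR-27a by transient transfection, cells of the pre-control group (3 arrays) received a negative control precursor, and the labels call the 3 of each group biological replicates. The labels give a dose of 10 nM and, for pre-miR-27a, a time of 48 hours, the study's methods give another dose and time, and the sources do not settle which of them the arrays had. Each array measured the RNA of a whole culture, so fewer cells expressing a gene and less RNA per cell cannot be told apart.

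In the mitochondrial pathway of apoptosis, BH3-only proteins bind the pro-survival BCL2 proteins or activate BAX and BAK1, which open pores in the outer mitochondrial membrane. Cytochrome c then leaves the mitochondria and assembles with APAF1 and caspase-9 into the apoptosome, which starts the caspase cascade. In the extrinsic pathway, ligand-bound death receptors recruit FADD and caspase-8, a step that CFLAR (c-FLIP) inhibits, and the IAP proteins BIRC2 and BIRC3 restrain signalling toward caspase-8. MicroRNAs such as miR-27a repress mRNAs that pair with their seed, bases 2 to 8 from the 5′ end. The mature miR-27a-3p that the precursor yields and its paralog miR-27b-3p are shown, as given by RefSeq (GRCh38.p14), because they carry the same seed, which stands in capitals.
hsa-miR-27a-3p: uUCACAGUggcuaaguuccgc
hsa-miR-27b-3p: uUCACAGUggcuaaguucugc
Both are 21 bases long. MIR27A lies on the minus strand, with the mature sequence at chr19:13836447-13836467, and MIR27B on the plus strand, at chr9:95085505-95085525. The level of miR-27a itself was not analysed here.

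Values are quantile-normalized log2 signals, a log2 fold change is pre-miR-27a minus pre-control with its standard error (SE), and p-values come from limma, adjusted over all 36469 probes with a threshold of 0.05. A gene is given by its brightest probe unless another is named, and the levels of different probes are not compared. The share of spots well above background was 69.9% to 73.9% with the pre-control and 74.1% to 78.0% with pre-miR-27a, and no spot was saturated (0 on each array). Each group was hybridised on a slide of its own, so that an effect of the slide and one of the precursor cannot be told apart. Arrays with the same replicate number, which is also the position on the slide, varied together, and the adjusted p of a fit with the replicate number as a block is given where it changes a call. Of the muscle lineage markers 9 of 10 were kept, all 9 well above background on every array, and MYF5 was not kept. Of the 9, 8 were lower and 1 higher, with 0 called. At an unadjusted p under 0.05, 3 were lower, against 23.8% of all gene names in either direction. With the block 3 lower were called, against 14.1% in either direction. Of 8 epithelial, blood and endothelial markers, 4 were dim on every array and 2 were well above background on all 6, CD14 and CD3E. Both fell (log2 fold changes −0.71 and −0.44, limma adjusted p = 0.0223 and 0.0348). They were the 2 of the 8 that were called, against 7.4% of all gene names. The part of these markers in the values of the apoptosis genes was not tested.

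Among the brightest probes of the 35 genes, that of BAD, a BH3-only gene, passed the test. Its limma adjusted p of 0.0499 lay at the threshold, and leaving out any 1 array left it uncalled. Of the 35 genes, 1 fell (BAD), 0 rose and the others did not pass the test, against 7.4% called among all 27328 gene names, of which 3.07% rose and 4.33% fell. At an unadjusted p under 0.05, 2 genes were higher and 7 lower, against 23.8% of all gene names. With the replicate block 3 were called, against 14.1%, with BAX and CASP6 higher and BAD lower. Signals of the groups did not overlap for 12 genes, 4 higher and 8 lower, against 31.5% of all gene names (12.6% higher and 18.9% lower). Of the 64 probes, 1 rose and 1 fell, against 7.83% of all probes called (3.95% higher and 3.88% lower), 4 were higher and 11 lower at an unadjusted p under 0.05, against 24.8%, and 5 were called with the block, against 14.9%. Groups did not overlap for 6 higher and 12 lower probes, against 32.5% of all probes. The median log2 fold change over the 35 genes was −0.05, and over all gene names −0.04. Shares not overlapping or at an unadjusted p under 0.05 thus lay near those of all gene names, and the number called ranged from 0 to 3 over the processing alternatives.

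Brightest probes of 30 genes were well above background on all 6 arrays, against 72.7% of all gene names, while those of BCL2A1, CASP10, CFLAR and TNFRSF10A were so on none and that of BIRC3 on 1 array of each group. For these 5 genes no change could be measured at this signal, and the counts by role are therefore given for the other 30. For them the 95% interval bounds the size of change that could have been missed. It lay within −1 and 1 for 29 of the 30 genes, HRK being the other, against 88% of all gene names that were well above background throughout, and within −0.5 and 0.5 for 17.

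**Figure D1:**
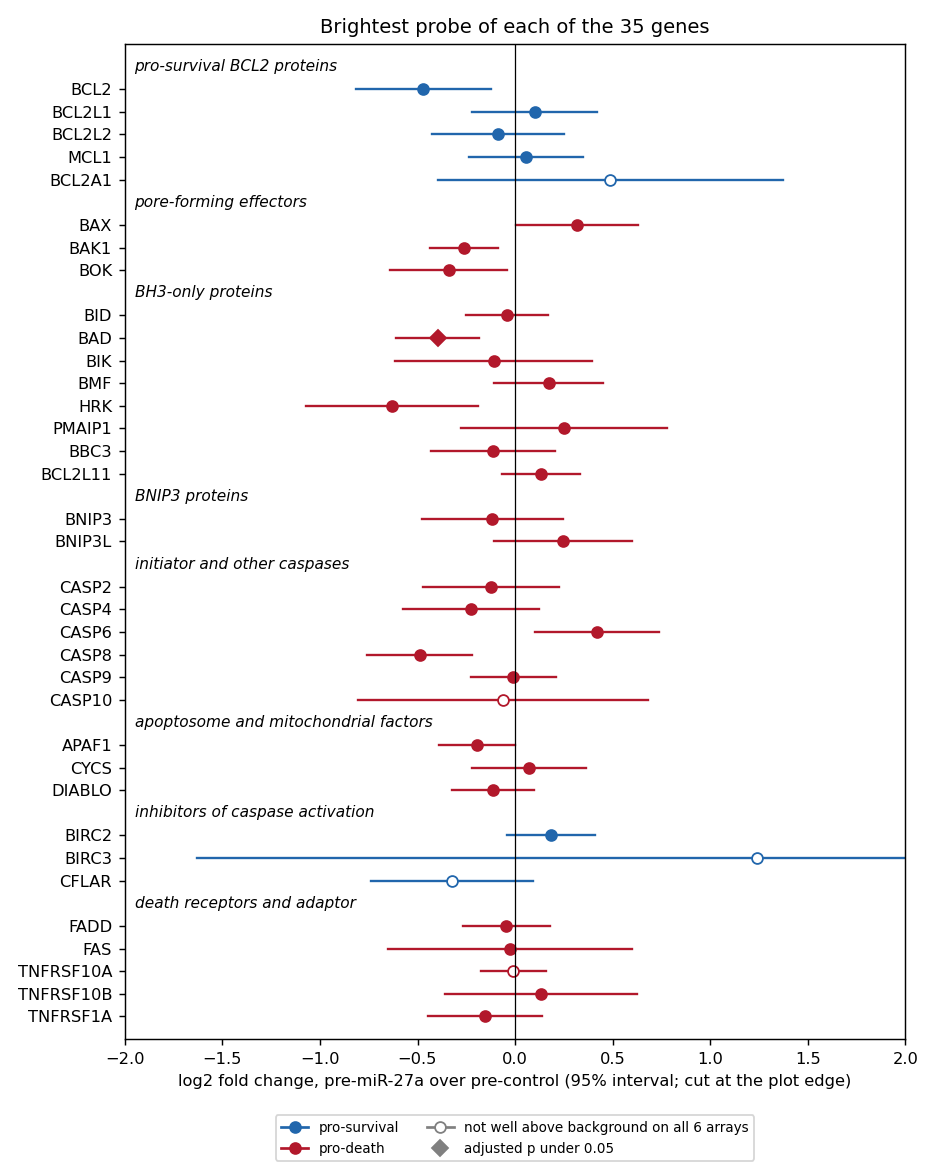
Log2 fold change of pre-miR-27a over pre-control (x axis) with its 95% interval for the brightest probe of each gene, in the order of their roles, blue for pro-survival and red for pro-death genes, with open circles where the probe was not well above background on all 6 arrays. Most intervals crossed 0, and BAD, at −0.40, was the gene with an adjusted p under 0.05.

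The pro-survival BCL2 proteins, which hold BAX and BAK1 in check, were 2 higher and 2 lower among the 4 that could be measured, with 0 called (BCL2 lower at an unadjusted p under 0.05). BCL2, the founding member, had signals of 11.62, 11.71 and 11.28 on pre-control arrays and 11.20, 11.00 and 11.01 on pre-miR-27a arrays (probe at chr18:59136115-59136150, hg18, minus strand). The groups did not overlap, all pre-miR-27a arrays being lower, and the log2 fold change was −0.47 (SE 0.14, 95% interval −0.82 to −0.12, adjusted p = 0.107). The other BCL2 probe, at chr18:58941703-58941762, gave 8.95, 9.38 and 8.94 on pre-control and 9.47, 9.61 and 9.29 on pre-miR-27a arrays, with overlap. Its log2 fold change had the opposite sign, 0.37 (SE 0.16, adjusted p = 0.229), so that the difference between the BCL2 probes within an array went from 2.45 ± 0.20 to 1.61 ± 0.20 (SD, n = 3 each) without overlap.

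MCL1, a short-lived pro-survival protein, gave 15.49, 15.19 and 15.26 on pre-control arrays and 15.50, 15.33 and 15.27 on pre-miR-27a arrays at its brightest probe (chr1:148813852-148813911). The groups overlapped almost fully, with a log2 fold change of 0.05 (SE 0.12, 95% interval −0.24 to 0.35, adjusted p = 0.823) that turned to −0.10 with 75th percentile scaling. A probe that the files place next to it, at chr1:148814246-148814305, gave 12.37, 11.98 and 11.89 against 12.76, 12.73 and 12.54, higher on all pre-miR-27a arrays. Its log2 fold change was 0.59 (SE 0.15, adjusted p = 0.0766, and 0.0442 with the block). This probe was also called with normexp (0.0240) and the filter on probes well above background (0.0494). It was not called with the scaling, no filter, the deposited log2 values, the variance trend or SAM. The third MCL1 probe was at −0.04 (adjusted p = 0.822). BCL2L1, which encodes BCL-XL, gave 11.31, 11.06 and 11.34 on pre-control and 11.40, 11.15 and 11.46 on pre-miR-27a arrays, overlapping, with a log2 fold change of 0.10 (SE 0.13, 95% interval −0.22 to 0.42, adjusted p = 0.691). BCL2L2, encoding BCL-W, was at −0.09 (adjusted p = 0.752), and BCL2A1, encoding BFL-1, was dim on all 6 arrays.

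Of the pore-forming effectors, BAX was higher and BAK1 and BOK lower, with 0 of 3 called (1 higher and 2 lower at an unadjusted p under 0.05). BAX gave 15.55, 15.25 and 15.39 on pre-control and 15.89, 15.57 and 15.68 on pre-miR-27a arrays (chr19:54156716-54156775). The lowest pre-miR-27a array lay just above the highest pre-control array, and the log2 fold change was 0.32 (SE 0.13, 95% interval 0.00 to 0.63, adjusted p = 0.197, and 0.0441 with the block). The other BAX probes were at −0.07 and 0.06 (adjusted p = 0.775 and 0.823). BAK1, the other main effector, gave 10.83, 10.91 and 10.83 on pre-control and 10.62, 10.58 and 10.59 on pre-miR-27a arrays (chr6:33648563-33648622). Its replicates were close together and did not overlap, with a log2 fold change of −0.26 (SE 0.07, 95% interval −0.44 to −0.09, adjusted p = 0.0862). BOK, a BAX relative, was at −0.34 (SE 0.12, adjusted p = 0.158) at its brighter probe and −0.01 at the other.

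BAD was the BH3-only gene that fell, and 3 of the 8 genes of this class were higher and 5 lower. BAD, which binds and neutralizes BCL2 and BCL-XL unless it is phosphorylated, has a probe at chr11:63794098-63794157 (hg18, minus strand). Its signals were 13.73, 13.84 and 13.66 on pre-control arrays and 13.36, 13.40 and 13.28 on pre-miR-27a arrays. All pre-miR-27a arrays were lower, from 13.75 ± 0.09 to 13.35 ± 0.06 (SD, n = 3 each), a log2 fold change of −0.40 (SE 0.08, 95% interval −0.61 to −0.19). The limma adjusted p of 0.0499 lay at the threshold (0.0367 with the block), and leaving out any 1 array left BAD uncalled, at −0.44 to −0.35 with adjusted p of 0.0844 to 0.147. BAD also lost its call with 75th percentile scaling (adjusted p = 0.0587), without the filter (0.0509), with the mean over a gene's probes (0.0597) and in SAM at both thresholds. Over all probes, leaving out 1 array gave 0 to 1276 calls, against 2856 with all 6. BAD has no other probe.

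**Figure D2:**
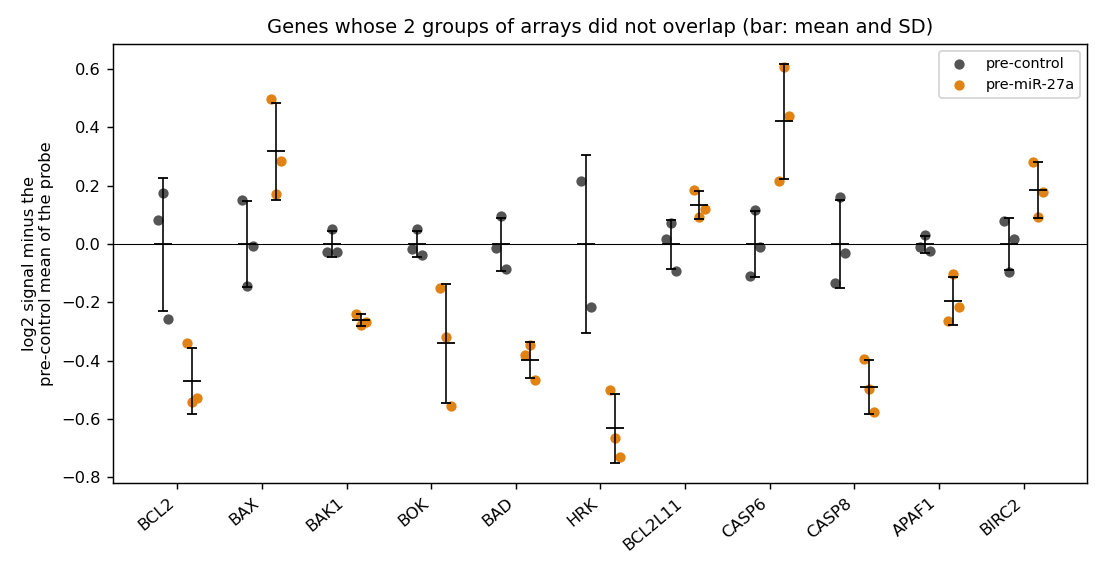
Log2 signal of each array (points) minus the pre-control mean of the probe, with mean and SD per group (bars), for the 11 genes whose groups did not overlap and whose brightest probe was well above background on all 6 arrays. BAD and CASP8 lay lower on all pre-miR-27a arrays and BAX and CASP6 higher, and HRK has 2 pre-control arrays because 1 spot was not found.

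BCL2L11, which encodes BIM, had 4 kept probes, and 1 of them rose. The brightest (A_24_P122921, chr2:111642363-111642422) gave 11.85, 11.90 and 11.74 on pre-control and 12.02, 11.93 and 11.95 on pre-miR-27a arrays, a log2 fold change of 0.13 (SE 0.08, 95% interval −0.07 to 0.33, adjusted p = 0.376) with no overlap. The probe that rose (A_23_P154426, chr2:111640036-111640095) gave 4.56, 3.62 and 4.39 on pre-control and 5.46, 5.81 and 5.53 on pre-miR-27a arrays. None of its pre-control spots, and all 3 of its pre-miR-27a spots, stood well above background, so that with the background subtraction used here its signal was at least 1.88-fold higher, a bound set against the higher, per array, of its own signal and the lowest signal well above background. The fitted log2 fold change was 1.41 (SE 0.27, adjusted p = 0.0383, and 0.0641 with the block), 0.47 (adjusted p = 0.0461) with normexp background correction, which lies under that bound, and 1.13 to 1.60 without any 1 array, with adjusted p of 0.0544 to 0.117. Around the spots the median intensity of an array was 74.5 to 76 with the pre-control and 52.5 to 53 with pre-miR-27a, and the part of this local background in the rise was not tested. The other kept probes were at 0.12 and −0.15 (adjusted p = 0.642 and 0.654), and a BCL2L11 probe removed because its spot was not found on 2 pre-miR-27a arrays was at −0.50 (SE 0.12, adjusted p = 0.0635) without the filter.

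**Figure D3:**
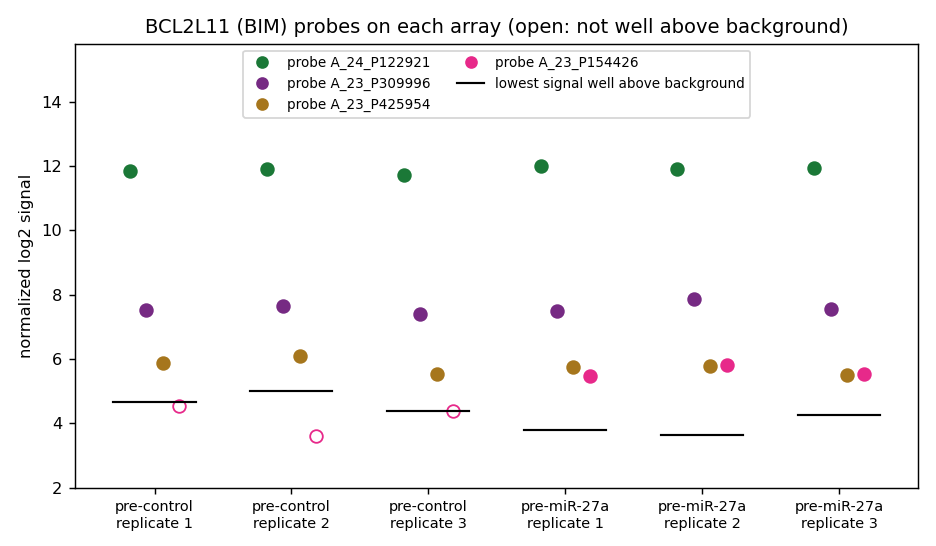
Normalized log2 signal (y axis) of the 4 kept BCL2L11 probes on each array (x axis), with open circles for spots not well above background and a line for the lowest signal well above background on that array. The other 3 probes had log2 fold changes of 0.13, 0.12 and −0.15. A_23_P154426 went from between 3.62 and 4.56 in the pre-control group to between 5.46 and 5.81 in the pre-miR-27a group.

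Other BH3-only genes were not called. BBC3, which encodes PUMA, gave 16.86, 16.79 and 16.57 on pre-control and 16.82, 16.55 and 16.51 on pre-miR-27a arrays, overlapping, with a log2 fold change of −0.11 (SE 0.13, 95% interval −0.43 to 0.20, adjusted p = 0.642). PMAIP1, which encodes NOXA, gave 10.66, 10.77 and 11.30 against 10.90, 11.20 and 11.38, with a log2 fold change of 0.25 (SE 0.21, 95% interval −0.28 to 0.78, adjusted p = 0.530). Each pre-miR-27a array was above the pre-control array of its number, while the groups overlapped. HRK, chosen after its values were seen because it had the lowest log2 fold change among the brightest probes, gave 11.04 and 10.61 on pre-control replicates 2 and 3, with replicate 1 missing, and 10.33, 10.16 and 10.10 on pre-miR-27a arrays. Its log2 fold change was −0.63 (SE 0.17, adjusted p = 0.101), and it was called in the deposited log2 values (−0.67, adjusted p = 0.0381) and with the filter on probes well above background (−0.66, adjusted p = 0.0285). The other HRK probe was at −0.07. BID, BIK and BMF were between −0.11 and 0.17. BNIP3 and BNIP3L, mitochondrial proteins of mitophagy and cell death, were at −0.12 and 0.25.

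Of the 5 caspases that could be measured 1 was higher and 4 were lower, with 0 called (CASP6 higher and CASP8 lower at an unadjusted p under 0.05). CASP8, the initiator caspase of the death receptors, gave 10.85, 11.15 and 10.95 on pre-control and 10.59, 10.49 and 10.41 on pre-miR-27a arrays (chr2:201859729-201859788). All pre-miR-27a arrays were lower, from 10.98 ± 0.15 to 10.49 ± 0.09 (SD, n = 3 each), with a log2 fold change of −0.49 (SE 0.11, 95% interval −0.76 to −0.22) and a limma adjusted p of 0.0529, just above the threshold. It was called with normexp background correction (−0.46, adjusted p = 0.0314) with the filter on probes well above background, with limma's variance trend and robust estimation, and in the deposited log2 values (−0.50, adjusted p = 0.0461). It was not called with the replicate block (0.0615), 75th percentile scaling (0.0533), no filter (0.0554), SAM or any 1 array left out. The mean over its probes was 0.34, although each probe taken alone was below 0 (−0.49, −0.04 and −0.02). A dim probe near 2.0 was missing on pre-miR-27a replicate 2, so the mean on that array left out this low value. The other CASP8 probes were too dim to give a change, standing well above background on 0 pre-control arrays and on 1 and 0 pre-miR-27a arrays. CASP9, the initiator caspase of the apoptosome, gave 12.14, 12.30 and 12.23 against 12.12, 12.25 and 12.27, fully overlapping, with a log2 fold change of −0.01 (SE 0.09, 95% interval −0.23 to 0.21, adjusted p = 0.962). Its other probe was at −0.24 (adjusted p = 0.150), lower on all pre-miR-27a arrays.

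CASP6, an executioner caspase, was named after its values were seen, as the caspase called with the block. It gave 11.36, 11.58 and 11.46 on pre-control and 11.68, 12.07 and 11.90 on pre-miR-27a arrays (chr4:110830094-110830153). Its groups did not overlap, and the log2 fold change was 0.42 (SE 0.13, 95% interval 0.10 to 0.74, adjusted p = 0.114, and 0.0402 with the block). CASP2 and CASP4 were at −0.12 and −0.23 (adjusted p = 0.654 and 0.388), and the dimmer CASP4 probe, at −0.43 (SE 0.15, adjusted p = 0.154), was called with the block (0.0376). A dimmer CASP2 probe was at −0.35 (SE 0.10, adjusted p = 0.0866), lower on all pre-miR-27a arrays. The dimmest was at 0.11 (adjusted p = 0.801). CASP10 was dim on all 6 arrays.

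Of the apoptosome and mitochondrial factors, 1 was higher and 2 lower with 0 called (0 higher and 1 lower at an unadjusted p under 0.05). APAF1, the scaffold of the apoptosome, gave 8.72, 8.76 and 8.71 on pre-control and 8.47, 8.63 and 8.51 on pre-miR-27a arrays. The groups did not overlap, and the log2 fold change was −0.20 (SE 0.08, adjusted p = 0.201). CYCS, which encodes cytochrome c, gave 14.52, 14.67 and 14.54 against 14.44, 14.73 and 14.78, overlapping, with a log2 fold change of 0.07 (SE 0.12, 95% interval −0.22 to 0.36, adjusted p = 0.768), and −0.05 with 75th percentile scaling. The other CYCS probes were at 0.06 and 0.52 (adjusted p = 0.798 and 0.442). CYCS has near-identical processed copies in the genome, so its probes may measure more than this gene. DIABLO, an antagonist of the IAP proteins, was at −0.11 (adjusted p = 0.482).

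Of the inhibitors, BIRC2, which encodes the ubiquitin ligase cIAP1, gave 12.21, 12.04 and 12.15 on pre-control and 12.42, 12.23 and 12.31 on pre-miR-27a arrays. Its groups did not overlap by a narrow margin, and the log2 fold change was 0.18 (SE 0.09, 95% interval −0.04 to 0.41, adjusted p = 0.282). BIRC3, which encodes cIAP2, gave 5.09, 2.18 and 2.16 against 5.10 and 3.66 with pre-miR-27a replicate 3 missing, and was well above background on replicate 1 of each group only. Its fitted log2 fold change of 1.24 had an interval of −1.63 to 4.11 (SE 1.09, adjusted p = 0.556). Neither CFLAR probe stood well above background on any of the arrays, so CFLAR has no measured change here.

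FADD and the 3 death receptors that could be measured were 1 higher and 3 lower with 0 called (0 at an unadjusted p under 0.05). FAS, the receptor of FAS ligand, gave 9.43, 8.72 and 8.93 on pre-control and 9.35, 8.67 and 8.98 on pre-miR-27a arrays. Replicate 1 was the highest and replicate 2 the lowest in both groups, and the log2 fold change was −0.03 (SE 0.25, 95% interval −0.65 to 0.60, adjusted p = 0.964), and 0.03 with 75th percentile scaling. TNFRSF10B, the TRAIL receptor DR5, gave 14.83, 14.42 and 14.57 against 15.07, 14.42 and 14.72, with the same order of replicates in both groups and a log2 fold change of 0.13 (SE 0.20, 95% interval −0.36 to 0.62, adjusted p = 0.741). TNFRSF10A, the TRAIL receptor DR4, stayed between 1.96 and 2.00 on the 6 arrays and was not well above background on any. TNFRSF1A, the main TNF receptor, and FADD, the adaptor of the receptors, were at −0.16 and −0.05 (adjusted p = 0.483 and 0.806), and the dimmer FADD probe was at −0.26 (adjusted p = 0.0927) with no overlap.

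**Figure D4:**
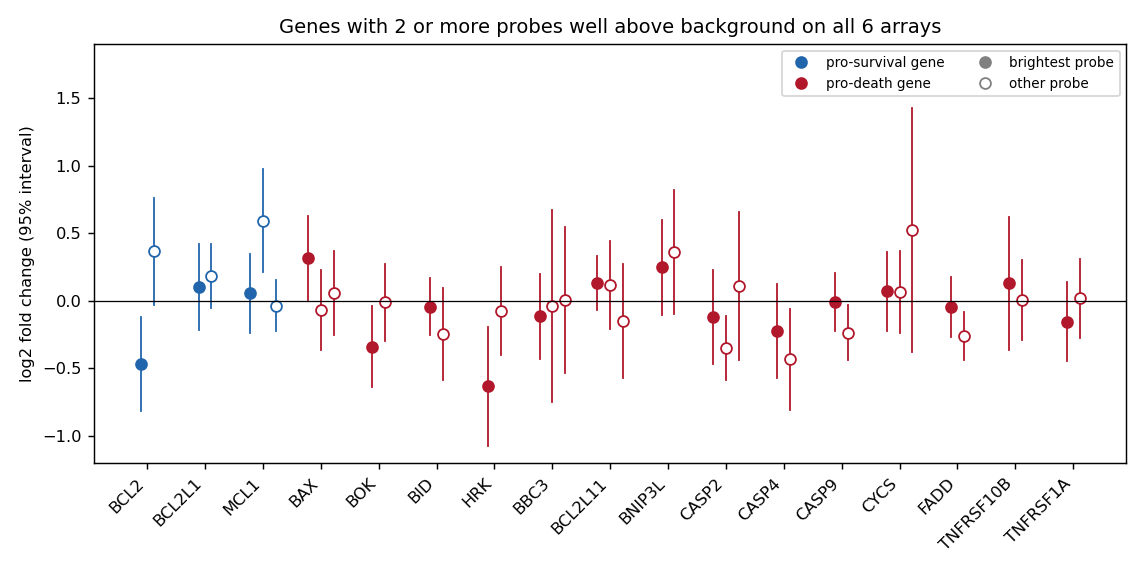
Log2 fold change with its 95% interval (y axis) of each probe of the 17 genes that have several probes well above background on all 6 arrays (x axis), filled for the brightest probe of a gene. The probes of BCL2 lay on opposite sides of 0, at −0.47 and 0.37, and 1 of 3 MCL1 probes lay apart from the others, at 0.59.

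Probes of the same gene did not always run together, in these genes as over the whole array. Of the 17 genes with several probes well above background on all 6 arrays, 10 had all probes on the same side of 0, against 60.0% of 5382 gene names with such probes. The difference between probes of a gene, taken within each array, did not overlap between the groups for 11 of 29 pairs, in 9 genes, against 45.6% of 9770 such pairs over all gene names. These included the BCL2 pair, 2 MCL1 pairs and 2 BAX pairs. BBC3, by contrast, had 3 probes at −0.11, −0.04 and 0.01.

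Pro-survival and pro-death genes were then set against each other. Of the 5 pro-survival genes that could be measured 3 were higher and 2 lower, with 0 called (BCL2 lower at an unadjusted p under 0.05) and a median log2 fold change of 0.05. Over all 8, dim probes included, the median was 0.08, or −0.04 with 75th percentile scaling and −0.0065 with normexp. Of the 25 pro-death genes that could be measured 8 were higher and 17 lower, with BAD called and a median of −0.11. Over all 27 the median was −0.06, or −0.14 with 75th percentile scaling. Of all gene names well above background throughout, 8628 were higher and 11237 lower, with a median of −0.04. Taken per array against the pre-control means, the median of the 8 pro-survival genes was 0.08, −0.11 and −0.02 on pre-control arrays and 0.03, −0.03 and 0.14 on pre-miR-27a arrays, so the groups overlapped, and by replicate number it was lower once and higher in the other pairs. The median of the 27 pro-death genes was −0.01, 0.05 and −0.04 on pre-control and −0.11, −0.02 and −0.10 on pre-miR-27a arrays, which overlapped too but was lower in each of the 3 pairs. That of all gene names, 0.00, 0.01 and −0.01 on pre-control and −0.04, −0.05 and −0.03 on pre-miR-27a arrays, was also lower in each pair, and no test was run on these medians.

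**Figure D5:**
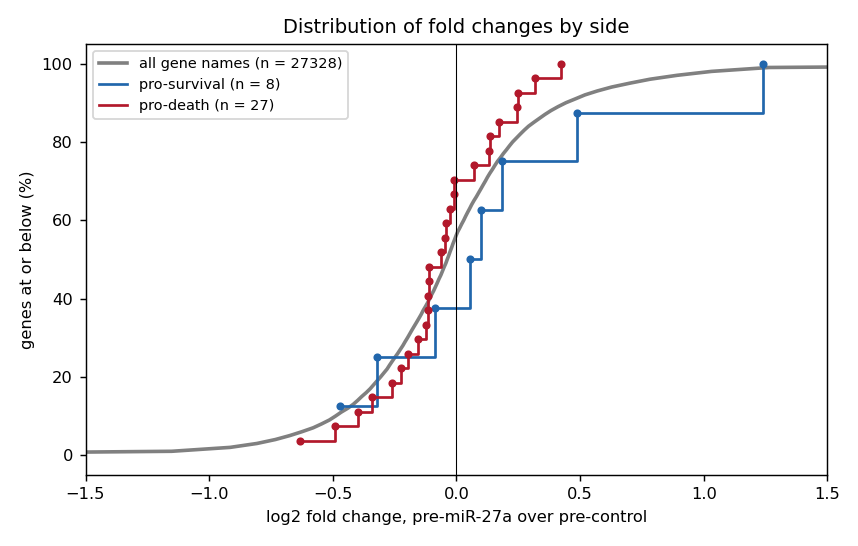
Share of genes at or below each log2 fold change (y axis, percent) for the 8 pro-survival genes, the 27 pro-death genes and all 27328 gene names. The curves lay close together around 0, with medians of 0.08, −0.06 and −0.04. The sign of the pro-survival median turned with 75th percentile scaling and with normexp background correction.

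Further genes of death signalling and targets of p53 were tallied in the same way. Of 51 other death pathway genes, 48 were kept, 22 higher and 26 lower with a median log2 fold change of −0.02. Of these 1 was called, against 7.4% of all gene names. At an unadjusted p under 0.05, 6 were higher and 8 lower, against 23.8%. Groups did not overlap for 7 higher and 8 lower, against 31.5%. Of the 36 with signals well above background throughout, 20 were higher and 16 lower, with a median of 0.04. The gene called was PEA15, a death effector domain protein that binds FADD and caspase-8. PEA15 fell from 14.62 ± 0.10 to 14.20 ± 0.06 (SD, n = 3 each), a log2 fold change of −0.41 (SE 0.09, limma adjusted p = 0.0481). Of 23 p53 target genes, 22 were kept, 14 higher and 8 lower with a median of 0.04, and 1 was called, against 7.4% of all gene names. AEN, an apoptosis-enhancing nuclease listed as ISG20L1 on the array, fell from 11.83 ± 0.02 to 11.46 ± 0.07 (SD, n = 3 each), a log2 fold change of −0.37 (SE 0.08, limma adjusted p = 0.0445). Leaving out any 1 array left both uncalled.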

How the data were processed

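RNA of RH36 cells given pre-miR-27a or pre-control (3 arrays each) was hybridised to 1-colour Agilent whole-genome arrays. The authors deposited processed intensities from Feature Extraction 10.5.1.1, background-subtracted within each array and not normalized between arrays, and a table of normalized log2 values. Log2 intensities of non-control spots were quantile normalized here, spots not found were set to missing, replicate spots averaged, and 36469 of 41000 probes with at most 1 missing array kept. Groups were compared in R 4.3.3 by limma 3.58.1, on tables read with the data.table package (version 1.17.8), with Benjamini-Hochberg adjustment at 0.05. These p-values measure the spread between the arrays of a group, and an exact permutation test of 3 against 3 arrays cannot go below 0.1. The median SE was 0.14.

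Within their groups, arrays of the same number deviated from the mean together, with correlations of 0.396, 0.456 and 0.409 over 31717 probes. Correlations between numbers were −0.266 to −0.123. Centring on the group means pushes these below 0 where same-number ones are positive, so they are no separate contrast. The numbers, which the labels give, were taken to pair the arrays in the fit with the block, and the main fit left this pairing out. The number is also the position on the slide, so whether the block stands for cultures or for positions cannot be told apart. The members and gene lists were chosen with earlier results of these data known. Full values are given for members with a called probe and for 18 members listed for their place in the pathway, and other members by range, those singled out after their values were seen being marked. All 35 member symbols are current in RefSeq, and 60 of 66 probes were matched to it by accession with the same symbol. Probe positions are those of the files (hg18), and exons or UTRs were not annotated for that build. Alternatives were 75th percentile scaling, normexp (offset 50), the replicate block, no filter, keeping probes well above background in a group, the deposited log2 values, a variance trend with robust estimation, SAM (20 relabellings, at 5% and 1.9%), the mean over a gene's probes, and leaving out each array. SAM was run unpaired on probes with no missing array, whereas the study's results describe its SAM as paired. Leaving out outlier spots was added after the data were seen.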

Additional observations from a re-analysis of the deposited data

How the results depend on the processing

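Of the 35 genes, 3 were called with normexp (BAD, CASP8 and BCL2). With the replicate block, which pairs same-numbered arrays, 3 were called (BAD, BAX and CASP6). The filter on probes well above background and the deposited log2 values each gave 3 (BAD, CASP8 and HRK), of 30 and 31 genes tested. Variance trend and robust estimation gave 2 (BAD and CASP8). With no filter, the mean over a gene's probes, or SAM at 5% or 1.9% (32 genes tested), 0 were called. With 75th percentile scaling 1 was called, CFLAR, which is not well above background. Of their probes, 5 were called with normexp, the background filter or the block, 4 in the deposited values, and 1 with 75th percentile scaling, no filter or either SAM threshold, which was the dim BCL2L11 probe except under the scaling. Other death pathway genes called were 4 with normexp, 3 with the block, 2 with 75th percentile scaling, the background filter or the variance trend, and 0 with SAM at 1.9% or the mean over probes. Of the p53 target genes 0 were called with 75th percentile scaling, SAM or the mean over probes. Over all probes 3527 of 36469 were called with normexp, 3870 of 29963 with the background filter and 3343 of 33169 in the deposited values. With the block 5421 of 36469 were called, with the variance trend 3378 and with the scaling 3256. Without the filter 2994 of 41000 were called, and in SAM 1815 (5%) and 411 (1.9%) of 31717. The mean over probes gave 1425 of 27328 gene names. The pro-survival median was −0.0361 with 75th percentile scaling and −0.0065 with normexp. The pro-death median was −0.14 with the scaling and −0.11 with the background filter or the deposited values. Leaving out 1 array gave 0 to 0 member genes, 0 to 1 member probes (MCL1, without pre-control replicate 1), 0 to 0 other death pathway genes and 0 to 0 p53 target genes. The pro-survival median then ranged from 0.00 to 0.14 and the pro-death median from −0.08 to −0.04. Leaving out outlier spots changed none of these counts. Signs turned for MCL1 (−0.10), CYCS (−0.0460) and FAS (0.0319) with 75th percentile scaling, and for FAS (0.0032) and TNFRSF10A (0.0615) with normexp. CASP8 turned to 0.34 with the mean over its probes, 2 of which were dim, 1 of these being missing on pre-miR-27a replicate 2. Without 1 array the log2 fold change of FAS ranged from −0.20 to 0.18, MCL1 from −0.0129 to 0.14, CASP9 from −0.0525 to 0.0383 and TNFRSF10B from −0.0355 to 0.29. Other causes were not tested. With 3 arrays a group, on separate slides, changes under the intervals given cannot be seen, and dim probes give only bounds.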

Other observations

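Among the other death pathway genes, a few below the threshold were noted after their values were seen. XIAP, an inhibitor of caspases listed as BIRC4 on the array, went from 8.53 ± 0.12 to 9.01 ± 0.14 (SD, n = 3 each). Its log2 fold change was 0.48 (SE 0.11, limma adjusted p = 0.0573). XIAP was called with the replicate block (0.0406), 75th percentile scaling (0.0422), normexp (0.0410), the background filter (0.0395) and the variance trend (0.0480). It was not called with no filter, SAM, the deposited log2 values, the mean over probes or any 1 array left out. ENDOG, a mitochondrial nuclease, went from 11.91 ± 0.14 to 11.47 ± 0.12, a log2 fold change of −0.44 (SE 0.11, limma adjusted p = 0.0731, and 0.0461 with normexp). Their signals were well above background throughout. CIDEB, called with the block, was well above background on 1 array of each group.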
